A study of Mus musculus with 13 samples.

Results

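Epcam, the claudin genes Cldn1, Cldn3, Cldn4 and Cldn7, the occludin gene Ocln, the ZO-1 gene Tjp1 and the JAM-A gene F11r are 8 genes of epithelial adhesion and the tight junction. They were taken by symbol from the 19505 genes named on the array, and each was measured by 1 feature. The choice was made with earlier results of these data known, among them lower Epcam and claudin values in tumours of the transduced lines. The values of the 8 genes by cell line are therefore a description, and the counts of calls given for them there support nothing.

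Tight junctions close the space between neighbouring epithelial cells near their apical side. Claudins form the strands of the junction and set which ions and small molecules pass between cells. Occludin and JAM-A are further membrane proteins of the junction, and ZO-1 is a scaffold on its inner side that ties claudins to the actin cytoskeleton. EpCAM is a homophilic adhesion molecule of epithelia and carcinomas. It binds claudin-7 directly and keeps claudins from being degraded. Carcinoma cells that lose epithelial character commonly lose these proteins.

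RNA was measured on Clariom S mouse arrays, with tumours pooled before hybridisation and 2 arrays for each of 6 groups. Tumours grew in a single mammary fat pad of Nlrx1-/- BALB/c or WT BALB/c mice after injection of 1 of 3 lines of 4T1, a mouse mammary carcinoma line of BALB/c origin. The groups were Nlrx1-/- hosts with 4T1OE cells, which overexpress NLRX1, WT hosts with 4T1OE cells, Nlrx1-/- hosts with 4T1OE-CTL cells, the control line for overexpression, WT hosts with 4T1OE-CTL cells, Nlrx1-/- hosts with parental, untransduced cells and WT hosts with parental cells. Neither the age of the mice nor the number of tumours in a pool is given in the sources used here, and p-values measure the spread between pools. Each cell line stands for 1 line, so an effect of transduction or of NLRX1 cannot be told apart from any other difference between the lines. Nlrx1 is missing from the host only, and the tumour cells keep their own copies.

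All values are log2 expression values as deposited. No depth applies to arrays, and the precision is limited by 2 arrays a group. The label of Nlrx1-/- parental replicate 1 recommends leaving that array out, and its median correlation with the other arrays over all features was 0.896, against 0.958 to 0.981 for the others. Its values are described below but not fitted, so 11 arrays entered the fits and 1 Nlrx1-/- parental array stood for its group. The standard deviation of all values within an array ran from 2.53 on that array to 3.12. It was under 3 also on both Nlrx1-/- 4T1OE-CTL arrays, WT 4T1OE-CTL replicate 1 and WT parental replicate 1. The median of 5222 negative control features on an array, 5.24 to 5.96, served as the background. Of the carcinoma markers, Krt8 and Krt18, the simple epithelial keratins, lay above 12 on all 12 arrays. Krt19 lay under the background on 8 of 12 arrays.

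The promoters are shown because Epcam, Cldn3, Cldn4 and Cldn7 were each highest in parental tumours, on every array. Each line gives the 250 bases before the start of transcription in the RefSeq table of GRCm38.p6, 5′ to 3′ on the gene's strand. The capitals mark the E-box CAGGTG or its reverse complement CACCTG, the core bound by the repressors of the ZEB and SNAI families. Epcam lies on the plus strand at chr17:87635729-87635978, Cldn3 on the plus strand at chr5:134985964-134986213, Cldn4 on the minus strand at chr5:134946935-134947184 and the second promoter of Cldn7 on the plus strand at chr11:69965171-69965420.
Epcam: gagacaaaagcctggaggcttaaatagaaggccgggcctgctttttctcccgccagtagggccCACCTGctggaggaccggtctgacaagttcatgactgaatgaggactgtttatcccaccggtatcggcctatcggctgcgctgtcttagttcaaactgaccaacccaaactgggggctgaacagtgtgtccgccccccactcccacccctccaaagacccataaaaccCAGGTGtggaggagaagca
Cldn3: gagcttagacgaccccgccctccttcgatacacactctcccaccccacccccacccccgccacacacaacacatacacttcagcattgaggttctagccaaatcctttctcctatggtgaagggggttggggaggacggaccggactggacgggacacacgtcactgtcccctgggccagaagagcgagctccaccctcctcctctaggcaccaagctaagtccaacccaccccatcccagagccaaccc
Cldn4: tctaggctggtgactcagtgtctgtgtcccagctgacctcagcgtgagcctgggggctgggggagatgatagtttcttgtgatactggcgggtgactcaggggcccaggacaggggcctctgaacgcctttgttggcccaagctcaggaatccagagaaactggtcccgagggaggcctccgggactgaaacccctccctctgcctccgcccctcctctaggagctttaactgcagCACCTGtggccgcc
Cldn7: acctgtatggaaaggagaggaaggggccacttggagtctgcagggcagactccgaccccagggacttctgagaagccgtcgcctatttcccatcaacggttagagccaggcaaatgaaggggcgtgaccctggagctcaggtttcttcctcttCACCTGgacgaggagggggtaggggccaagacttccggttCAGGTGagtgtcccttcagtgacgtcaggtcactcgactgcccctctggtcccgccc

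The table held 10 promoters of the 8 genes, and the E-box was found on either strand in 5 of them, 1 each of Epcam, Cldn4, Cldn7, Ocln and F11r. It was found in 17.2% of all 32851 promoters listed there. The Epcam promoter had matches that began 187 and 19 bases before the start, the Cldn4 promoter 1 at 14 bases, and the second Cldn7 promoter matches at 97 and 57 bases. The octamer AACCGGTT of GRHL factors, a palindrome, was in 0 of the 10 promoters and in 0.116% of all. The GC box GGGCGG of SP and KLF factors, searched with its reverse complement CCGCCC, was in 9 of the 10 and in 32.7% of all. The E-box and the GC box share no full match, and a match of letters does not show that a factor binds.

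Epcam was high in parental tumours and far lower in tumours of both transduced lines. Its values were 7.77 and 9.08 in Nlrx1-/- and 8.32 and 8.30 in WT hosts with 4T1OE tumours, 6.94 and 7.06 in Nlrx1-/- and 9.81 and 8.57 in WT hosts with 4T1OE-CTL tumours, and 12.57 and 13.02 in Nlrx1-/- and 14.95 and 14.42 in WT hosts with parental tumours. Every transduced-line array thus lay below every parental array, while the arrays of the 2 transduced lines overlapped. The mean was 8.37 ± 0.539 in 4T1OE (SD, n = 4), 8.09 ± 1.36 in 4T1OE-CTL (n = 4) and 14.1 ± 0.998 in parental tumours (n = 3 fitted arrays). With the host as a term in the fit, the difference of Epcam was -5.56 (SE 0.507) for 4T1OE and -5.84 (SE 0.507) for 4T1OE-CTL, each minus parental. The difference between 4T1OE and 4T1OE-CTL was 0.27 (SE 0.466). On all 12 arrays Epcam stayed above the background, so the lower level was a measured one.

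Cldn4, whose product is a claudin of many glandular epithelia, had the widest range of the 4 claudin genes. It was at 6.82 and 8.71 in Nlrx1-/- and 7.24 and 7.45 in WT hosts with 4T1OE tumours, 7.22 and 6.64 in Nlrx1-/- and 11.71 and 8.44 in WT hosts with 4T1OE-CTL tumours, and 13.78 and 13.87 in Nlrx1-/- and 15.35 and 14.42 in WT hosts with parental tumours. The transduced lines again lay wholly below the parental line, and 1 array, WT 4T1OE-CTL replicate 1, stood between the others of its line and the parental ones. The means were 7.55 ± 0.814 in 4T1OE (SD, n = 4), 8.50 ± 2.26 in 4T1OE-CTL (n = 4) and 14.5 ± 0.75 in parental tumours (n = 3). The fitted difference was -6.78 (SE 0.856) for 4T1OE and -5.83 (SE 0.856) for 4T1OE-CTL, each minus parental. Without WT 4T1OE-CTL replicate 1 the second value was -6.93.

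Cldn7, the claudin that binds EpCAM, was measured above the background in parental tumours and nowhere else. Its values were 4.35 and 4.23 in Nlrx1-/- and 3.90 and 3.69 in WT hosts with 4T1OE tumours, 4.40 and 5.20 in Nlrx1-/- and 5.16 and 4.27 in WT hosts with 4T1OE-CTL tumours, and 7.37 and 7.74 in Nlrx1-/- and 8.19 and 9.38 in WT hosts with parental tumours. All 8 arrays of the transduced lines lay under their own background, so only bounds hold. Relative to parental tumours, Cldn7 was lower by at least 3.11 on the log2 scale in 4T1OE (bound -3.11) and by at least 2.94 in 4T1OE-CTL (bound -2.94). No size is given between the transduced lines, since both lay under the background.

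Cldn3, a strand-forming claudin whose gene lies beside Cldn4 on chromosome 5, was likewise highest in parental tumours, with a smaller range. It was at 5.80 and 6.08 in Nlrx1-/- and 5.33 and 5.98 in WT hosts with 4T1OE tumours, 5.11 and 6.29 in Nlrx1-/- and 6.85 and 5.63 in WT hosts with 4T1OE-CTL tumours, and 7.53 and 8.06 in Nlrx1-/- and 8.55 and 8.39 in WT hosts with parental tumours. No transduced-line array reached the lowest parental one, and most transduced-line values were within about 1 log2 unit of the background. Fitted differences were -2.50 (SE 0.362) for 4T1OE and -2.33 (SE 0.362) for 4T1OE-CTL, each minus parental.

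Cldn1, a claudin of the skin barrier and of many epithelia, was barely measurable. It lay under the background on 10 of 12 arrays, with values of 4.84 to 5.34 in 4T1OE, 4.73 to 5.53 in 4T1OE-CTL and 5.04 to 6.03 in parental tumours. The lines overlapped, and the 2 arrays above background were Nlrx1-/- 4T1OE replicate 1 at 5.34 and WT parental replicate 2 at 6.03.

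**Figure D1:**
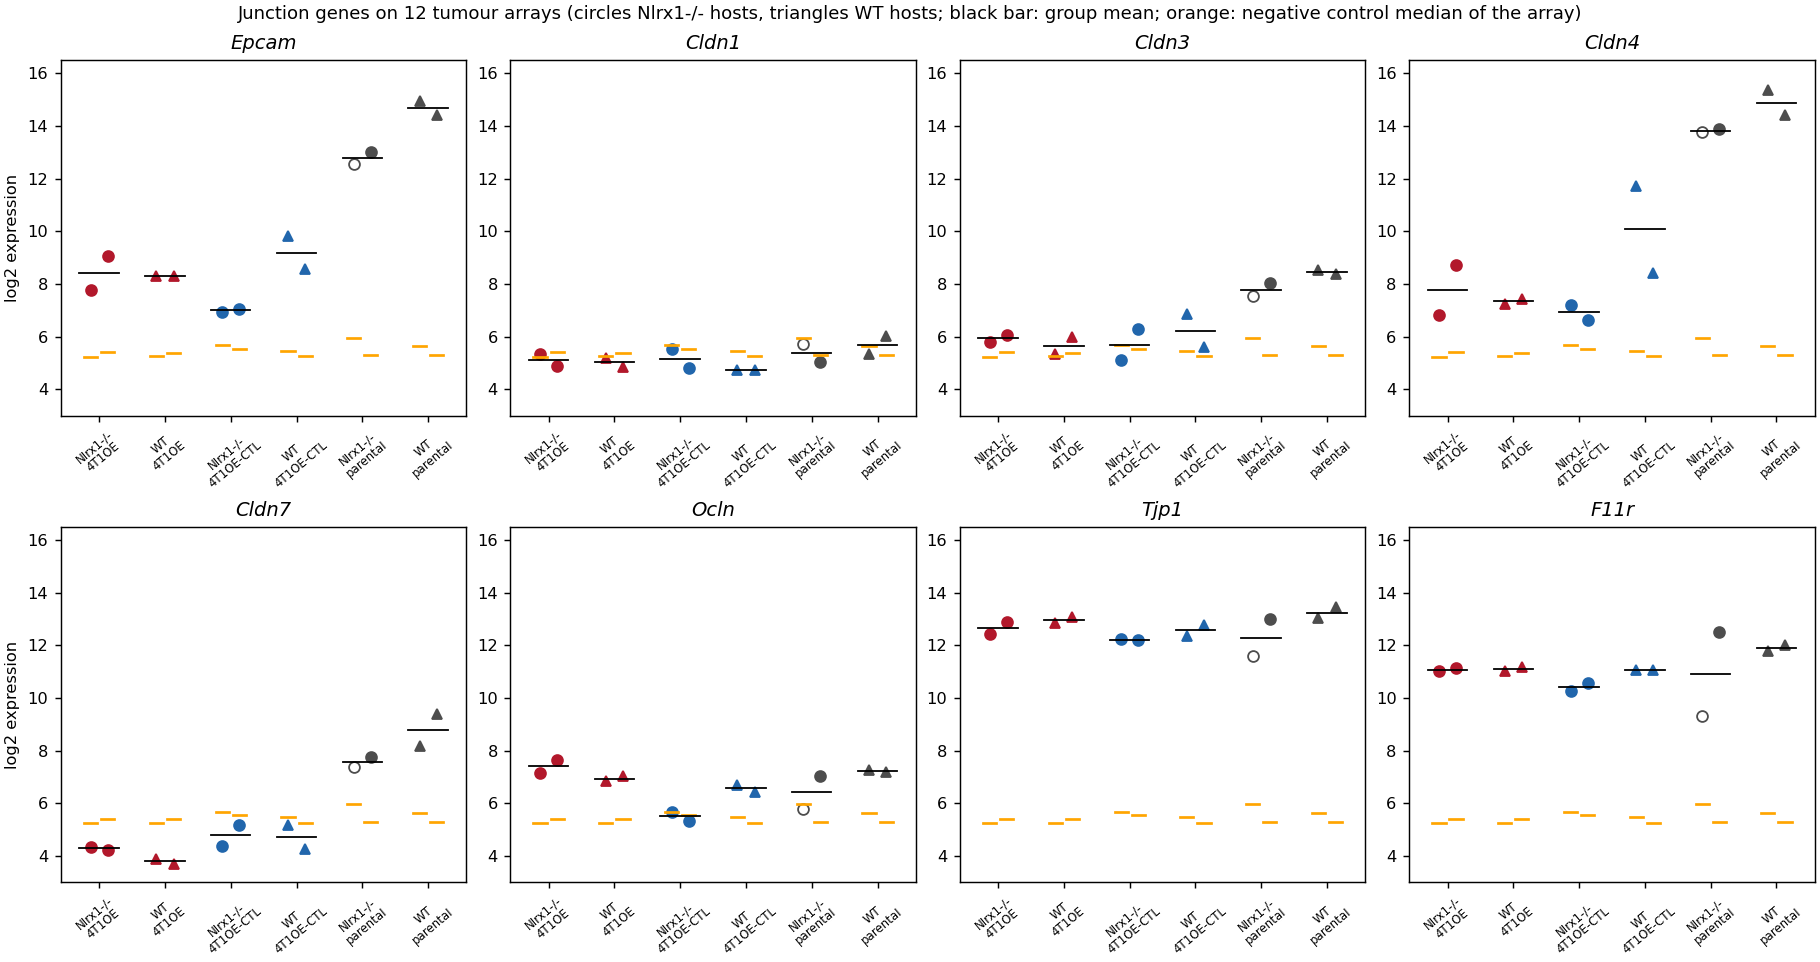
Log2 expression of the 8 genes on each of the 12 arrays, by host and cell line. Circles are arrays of Nlrx1-/- hosts and triangles of WT hosts, the open circle is the Nlrx1-/- parental array left out of the fits, black bars are means of 2 arrays and orange bars each array's negative control median. Epcam, Cldn3, Cldn4 and Cldn7 are higher on all 4 parental arrays than on any of the 8 others, and Ocln, Tjp1 and F11r are not.

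Ocln encodes occludin and showed another order, with the 4T1OE-CTL line lowest. Its values were 7.17 and 7.63 in Nlrx1-/- and 6.84 and 7.05 in WT hosts with 4T1OE tumours, 5.67 and 5.34 in Nlrx1-/- and 6.71 and 6.42 in WT hosts with 4T1OE-CTL tumours, and 5.79 and 7.05 in Nlrx1-/- and 7.28 and 7.17 in WT hosts with parental tumours. The lowest 4T1OE array stood above the highest 4T1OE-CTL one, and 4T1OE and parental arrays overlapped. The means were 7.17 ± 0.337 in 4T1OE (SD, n = 4), 6.04 ± 0.636 in 4T1OE-CTL (n = 4) and 7.17 ± 0.118 in parental tumours (n = 3). Ocln differed by 1.13 (SE 0.285) between 4T1OE and 4T1OE-CTL, by 0.05 (SE 0.311) between 4T1OE and parental and by -1.09 (SE 0.311) between 4T1OE-CTL and parental tumours. Both Nlrx1-/- 4T1OE-CTL arrays and the Nlrx1-/- parental array left out lay under the background.

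F11r, the gene of the immunoglobulin-like adhesion protein JAM-A, was well above the background throughout. It was at 11.01 and 11.15 in Nlrx1-/- and 11.01 and 11.16 in WT hosts with 4T1OE tumours, 10.27 and 10.57 in Nlrx1-/- and 11.06 and 11.05 in WT hosts with 4T1OE-CTL tumours, and 9.30 and 12.51 in Nlrx1-/- and 11.78 and 12.02 in WT hosts with parental tumours. Apart from the array left out, at 9.30, the parental arrays were the highest, and 4T1OE and 4T1OE-CTL arrays overlapped. The fitted difference was -1.01 (SE 0.252) for 4T1OE and -1.35 (SE 0.252) for 4T1OE-CTL, each minus parental, and -0.32 and -0.66 with all 12 arrays.

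Tjp1, which encodes ZO-1, had the narrowest range of the genes above background on every array, apart from the array left out. Its values were 12.42 and 12.90 in Nlrx1-/- and 12.86 and 13.07 in WT hosts with 4T1OE tumours, 12.24 and 12.18 in Nlrx1-/- and 12.35 and 12.79 in WT hosts with 4T1OE-CTL tumours, and 11.57 and 12.98 in Nlrx1-/- and 13.02 and 13.44 in WT hosts with parental tumours. All 3 lines overlapped over 12 arrays. On the 11 fitted arrays every parental value, 12.98 to 13.44, lay above every 4T1OE-CTL value, 12.18 to 12.79. The fitted differences were 0.42 (SE 0.192) for 4T1OE minus 4T1OE-CTL, -0.29 (SE 0.209) for 4T1OE minus parental and -0.71 (SE 0.209) for 4T1OE-CTL minus parental.

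Ocln, Tjp1 and F11r were each lowest on arrays with a low standard deviation of all values. The 3 lowest F11r values stood on the arrays with standard deviations of 2.53, 2.91 and 2.78, and the 3 lowest of Ocln and of Tjp1 stood on these same arrays. Not every array with a standard deviation under 3 had low values. On WT parental replicate 1, with 2.89, Ocln was at 7.28, Tjp1 at 13.02 and F11r at 11.78. On WT 4T1OE-CTL replicate 1, with 2.88, they were at 6.71, 12.35 and 11.06. With the standard deviation as a covariate the difference between 4T1OE and 4T1OE-CTL was 0.84 for Ocln, 0.16 for Tjp1 and 0.03 for F11r. After quantile normalization it was 0.11 for Tjp1 and 0.03 for F11r. Whether the spread of the arrays accounts for these differences was not tested further.

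At an adjusted p under 0.05 in limma, 1 of the 8 genes (Ocln) was called in the comparison of 4T1OE with 4T1OE-CTL, in which it was higher. Of all 22206 features, 4.73% were called there, 3.69% higher and 1.04% lower. In 4T1OE against parental tumours 4 of the 8 were called, all lower (Epcam, Cldn3, Cldn4 and Cldn7), and of all features 1.33% were called, 0.887% higher and 0.441% lower. In 4T1OE-CTL against parental tumours 5 of the 8 were called, all lower (Epcam, Cldn3, Cldn4, Cldn7 and F11r), and of all features 2.59% were, 0.968% higher and 1.62% lower. These counts stand beside the background only as a description, since such differences led to the choice of the genes. The 2 comparisons share the parental arrays. Groups that did not overlap over all 12 arrays were found for Epcam, Cldn3, Cldn4 and Cldn7 in both, with none wholly higher. Of all features, 5.01% lay wholly lower and 8.61% wholly higher in 4T1OE than in parental tumours, and 1.46% wholly lower and 2.59% wholly higher in 4T1OE-CTL. Between the transduced lines Ocln alone lay wholly higher in 4T1OE, where 9.39% of all features did, and none wholly lower, where 7.13% did.

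**Figure D2:**
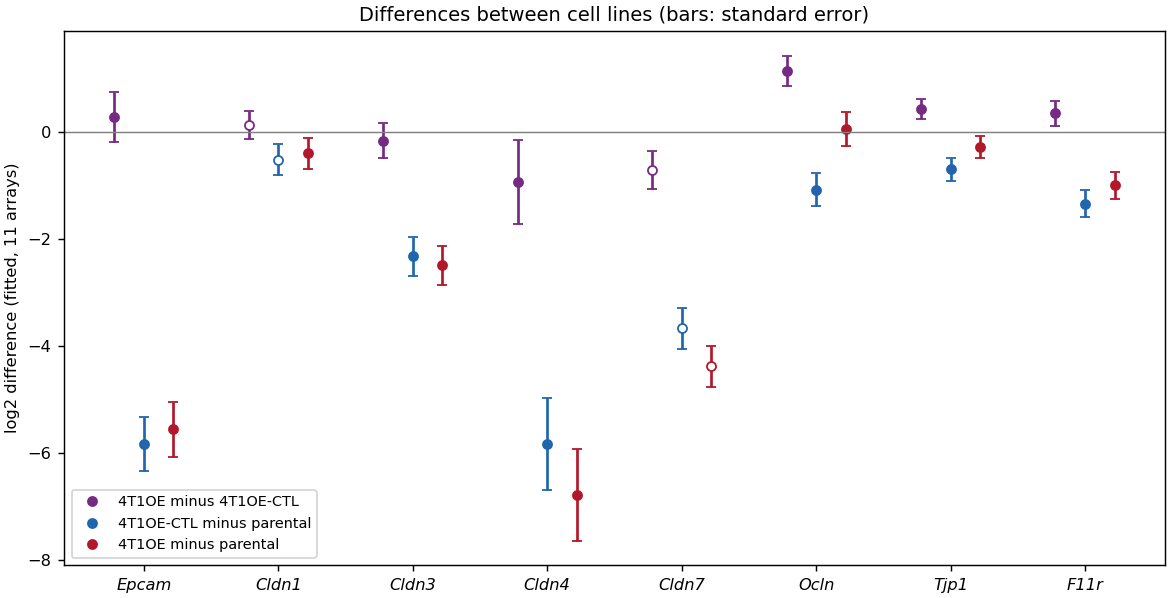
Fitted log2 differences between cell lines for the 8 genes, from 11 arrays with the host as a term, with standard errors as bars. Open points have at least 1 side under the background, so their fitted size is no measurement. Epcam and Cldn4 lie between -5.56 and -6.78 in both comparisons with parental tumours and near 0 or -0.95 between the transduced lines.

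In bulk tumour RNA, fewer carcinoma cells and less RNA of a gene per carcinoma cell cannot be told apart. The mean level of the carcinoma markers Krt7, Krt8, Krt18, Krt19 and Cdh1 ran from 11.5 to 11.8 in 4T1OE, from 9.83 to 12.5 in 4T1OE-CTL and from 11 to 13.3 in parental tumours, overlapping between lines. The fitted differences of all 5 markers were negative in both comparisons with parental tumours. Their median was -0.96 in 4T1OE, where they ran from -1.85 for Krt7 to -0.21 for Krt8, and -1.54 in 4T1OE-CTL, where they ran from -2.97 for Cdh1 to -0.30 for Krt19. Krt19 lay under the background on most arrays, among them all of 4T1OE, so the sizes of its differences are uncertain. Cdh1, the E-cadherin gene of the adherens junction, fell by 2.97 in 4T1OE-CTL relative to parental tumours (limma, adjusted p = 0.0145) and was at -1.31 in 4T1OE minus parental tumours (adjusted p = 0.297). Some markers of other cell types also passed between the lines. Of 7 fibroblast markers, 4 fell in 4T1OE relative to parental tumours (Col1a1, Col1a2, Lum and Postn), beside 0.441% of all features lower. In 4T1OE-CTL relative to parental tumours 2 fell (Lum and Postn), beside 1.62%. The mean level of the fibroblast list ran from 9.86 to 10.6 in 4T1OE, from 10.3 to 11.6 in 4T1OE-CTL and from 10.2 to 12.9 in parental tumours. Of 6 macrophage markers, 3 rose in 4T1OE relative to 4T1OE-CTL tumours (Csf1r, Mrc1 and C1qb), beside 3.69% of all features higher. The mean level of the macrophage list ran from 12.8 to 13.1 in 4T1OE, from 10.4 to 12.0 in 4T1OE-CTL and from 9.73 to 12.5 in parental tumours. Between the transduced lines Csn3 rose and Wap fell in 4T1OE, of 5 normal luminal mammary markers. Cdh5, of 8 endothelial markers, rose there too, and Trp63, of 6 basal or skin markers, fell, beside 1.04% of all features lower. Cdh5 fell in 4T1OE-CTL relative to parental tumours, beside 1.62%. No skeletal muscle marker passed. Their mean level ran from 5.66 to 11.3 in 4T1OE, 6.25 to 9.75 in 4T1OE-CTL and 5.81 to 6.84 in parental tumours. Calls of these markers under other settings were not examined. Marker lists were chosen with earlier results of these data known, so their calls between lines are a description. The part of these cell types in the values of the 8 genes was not tested.

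Skin and basal keratinocyte genes bear on the claudins because skin also expresses them. The mean level of Krt5, Krt14, Krt1, Krt10, Sbsn and Trp63 was 7.91 on WT 4T1OE replicate 1, 6.70 on Nlrx1-/- 4T1OE-CTL replicate 1 and 8.50 on WT parental replicate 2, against 4.73 to 5.73 on the other 9 arrays. Cldn7 and Cldn1 had their highest values, 9.38 and 6.03, on WT parental replicate 2. Epcam, Cldn3 and Cldn4 had theirs on WT parental replicate 1, where the skin list was at 5.36. The 3 B cell genes measured, Cd79a, Cd79b and Ms4a1, lay above the background on Nlrx1-/- 4T1OE replicate 1, Nlrx1-/- 4T1OE-CTL replicate 1 and Nlrx1-/- parental replicate 1 and under it on the other 9 arrays, with a mean level of 6.94 to 9.53, against 3.78 to 4.34 elsewhere. Without the first 2 of these, in a setting added after the data were seen, the difference of Epcam was -5.56 for 4T1OE and -5.65 for 4T1OE-CTL, each minus parental.

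The host comparison asked whether tumours in Nlrx1-/- mice differed from those in WT mice. The rule that chose the genes does not use it, and it was tested. No feature passed in any host comparison (limma, 0 of 22206), so percent called was 0 throughout. In the fit over all lines 955 features had an unadjusted p under 0.05, Epcam among them. Epcam was 6.94 to 13.02 (median 8.42) in Nlrx1-/- and 8.30 to 14.95 (median 9.19) in WT hosts, with a fitted difference of -1.19 (95% interval -2.07 to -0.31, adjusted p = 0.99988, limma). No gene of the 8 was wholly higher or lower in Nlrx1-/- hosts over all lines, where 0.0721% and 0.0585% of all features were. The difference of Cldn4 was -1.28 (-2.76 to 0.21), and those of the other 6 genes lay between -0.31 and 0.03, all with the same adjusted p. Without the arrays with a standard deviation under 3, in a setting added later, the difference of Epcam was -0.39 and that of Cldn4 was 0.10. Without WT 4T1OE-CTL replicate 1 that of Cldn4 was -0.54. The differences of all 5 carcinoma markers were negative as well over all lines, with a median of -0.92, though Krt19 lay under the background on most arrays. The part of these markers in the values was not tested.

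Within the 4T1OE-CTL line the differences between hosts were wider. Epcam was at 6.94 and 7.06 in Nlrx1-/- hosts, against 9.81 and 8.57 in WT hosts, and the fitted difference was -2.19 (95% interval -3.27 to -1.10, limma adjusted p = 0.312). Cldn4 was at 7.22 and 6.64 in Nlrx1-/- hosts, against 11.71 and 8.44 in WT hosts, a difference of -3.14 (-5.20 to -1.08, adjusted p = 0.381). It was -4.78 without WT replicate 2 and -1.51 without WT replicate 1, so its size rests on which of those 2 arrays is kept. Ocln was at 5.67 and 5.34 in Nlrx1-/- hosts, both under the background, against 6.71 and 6.42 in WT hosts, at least 0.95 lower (adjusted p = 0.372). F11r differed by -0.63 (adjusted p = 0.494), Cldn3 by -0.54 (adjusted p = 0.756) and Tjp1 by -0.35 (adjusted p = 0.744), and no size is given for Cldn1 and Cldn7, under the background in both hosts. Of the 8 genes, 5 lay wholly lower in Nlrx1-/- hosts (Epcam, Cldn4, Ocln, Tjp1 and F11r), where 18.0% of all features did, and Cldn1 wholly higher, where 16.1% did. Of the 22206 features, 2121 had an unadjusted p under 0.05, among them Epcam, Cldn4, Ocln and F11r.

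In the same hosts the carcinoma markers moved with these genes. Their mean level was 10.4 and 9.83 in Nlrx1-/- and 12.5 and 11.8 in WT hosts with 4T1OE-CTL tumours, and all 5 markers were lower, by a fitted difference of -3.36 for Cdh1 and for Krt7 (limma adjusted p = 0.125 and 0.232) and -1.51 for Krt18 (adjusted p = 0.368). Krt19 lay under the background on both Nlrx1-/- arrays, so the size of its difference is uncertain. Both Nlrx1-/- arrays also had low standard deviations, 2.91 and 2.78, against 2.88 and 3.07 in WT hosts. The part of the carcinoma markers or of the standard deviations in the values was not tested.

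In 4T1OE tumours the hosts were closer. The differences of the 8 genes, Nlrx1-/- minus WT, ran from -0.31 for Tjp1 to 0.46 for Ocln among those above the background, with an adjusted p of 0.99996 each (limma). For Epcam the 95% interval was -0.97 to 1.20 and for Cldn4 -1.64 to 2.48, so a host difference of 1 log2 unit or more lies within both. Cldn7 and Ocln were wholly higher in Nlrx1-/- hosts, Cldn7 at values under the background, where 15.7% of all features were, and none of the 8 wholly lower, where 16.6% were. In parental tumours, with 1 fitted Nlrx1-/- array, no test was made. There Epcam was at 12.57 and 13.02 in Nlrx1-/- hosts, against 14.95 and 14.42 in WT hosts, and Epcam, Cldn3, Cldn4, Cldn7, Ocln and Tjp1 lay wholly lower in Nlrx1-/- hosts, where 11.6% of all features did and 12.3% lay wholly higher. The mean level of the carcinoma markers there was 11 and 12.1 in Nlrx1-/- hosts, against 12.9 and 13.3 in WT hosts, and that of the fibroblast markers was 10.2 and 11.7 in Nlrx1-/- hosts, against 12.5 and 12.9 in WT hosts. Their part in the values was not tested.

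Whether the difference between 4T1OE and 4T1OE-CTL depended on the host was tested as an interaction. It was 2.30 for Epcam (95% interval 0.76 to 3.83), 3.56 for Cldn4 (0.65 to 6.47), 0.82 for Cldn3 (-0.69 to 2.33), 0.63 for F11r (-0.17 to 1.43) and 0.05 for Tjp1 (-0.89 to 0.98). For Ocln, under the background in Nlrx1-/- hosts with 4T1OE-CTL tumours, it was at least 1.41. The Cldn4 value was 1.93 without WT 4T1OE-CTL replicate 1 and 5.20 without WT 4T1OE-CTL replicate 2, and that of Cldn3 was 0.21 without the first of these. The adjusted p was 0.999 for each gene (limma), and 0 of 22206 features passed, with 726 at an unadjusted p under 0.05. Among these 726 were Epcam, Cldn4 and Ocln.

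**Figure D3:**
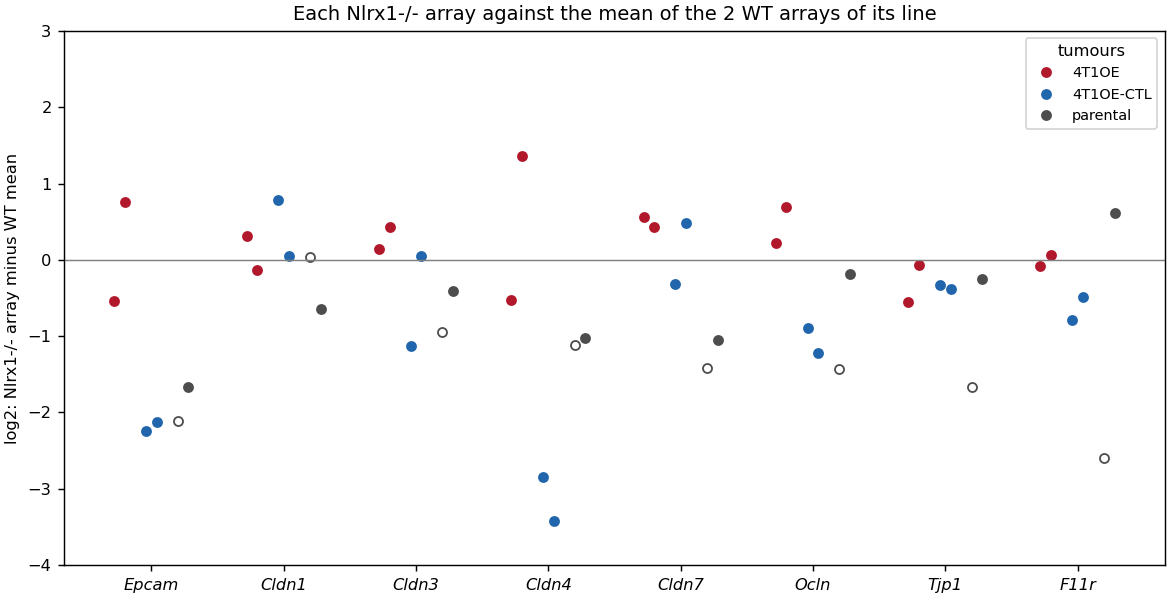
Each Nlrx1-/- array's log2 value minus the mean of the 2 WT arrays of the same line, for the 8 genes. Open circles are the parental array left out of the fits. In 4T1OE-CTL tumours both points lie below 0 for Epcam, Cldn4, Ocln, Tjp1 and F11r, and none of the host differences passed the adjusted threshold.

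How the genes varied together differed between the arrays as a whole and the transduced lines alone. Over 12 arrays, which fall into the parental ones and the rest, Pearson's r with Epcam was 0.97 for Cldn4, 0.95 for Cldn3 and 0.93 for Cldn7. Over the 8 transduced-line arrays it was 0.86 for Cldn4, 0.57 for Cldn3 and 0.00 for Cldn7, whose values there lie under the background. Over the same 8 arrays Ocln and F11r had r = 0.85, Tjp1 and F11r 0.73, and Epcam and F11r 0.79. These values describe arrays that share lines, hosts and the spread noted above.

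Among 9927 genes with a mean above the median feature, those most like Epcam over the 12 arrays were Esrp1 (r = 0.97), Kcnk1 and Grhl2 (0.95 each), Dsp (0.95), Zfx, Postn, Ube2q2, Miga1, Cnot7 and Tmem54 (0.91). Esrp1 encodes a splicing regulator of epithelia, Grhl2 a transcription factor of epithelia, Dsp the desmosomal protein desmoplakin and Postn periostin, a matrix protein of fibroblasts. Postn, Zfx and Kcnk1 were the nearest to Cldn3, Zfx, Postn and Esrp1 to Cldn4, and Postn, Prom2 and Ebpl to Cldn7. Nearest to Ocln were Btbd9, Krt18 and Ankrd13c, to Tjp1 Metap2, Pja1 and Aggf1, to F11r Usp22, Aig1 and Erbb2, and to Cldn1 Zfp935, AW209491 and Acot1.

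**Figure D4:**
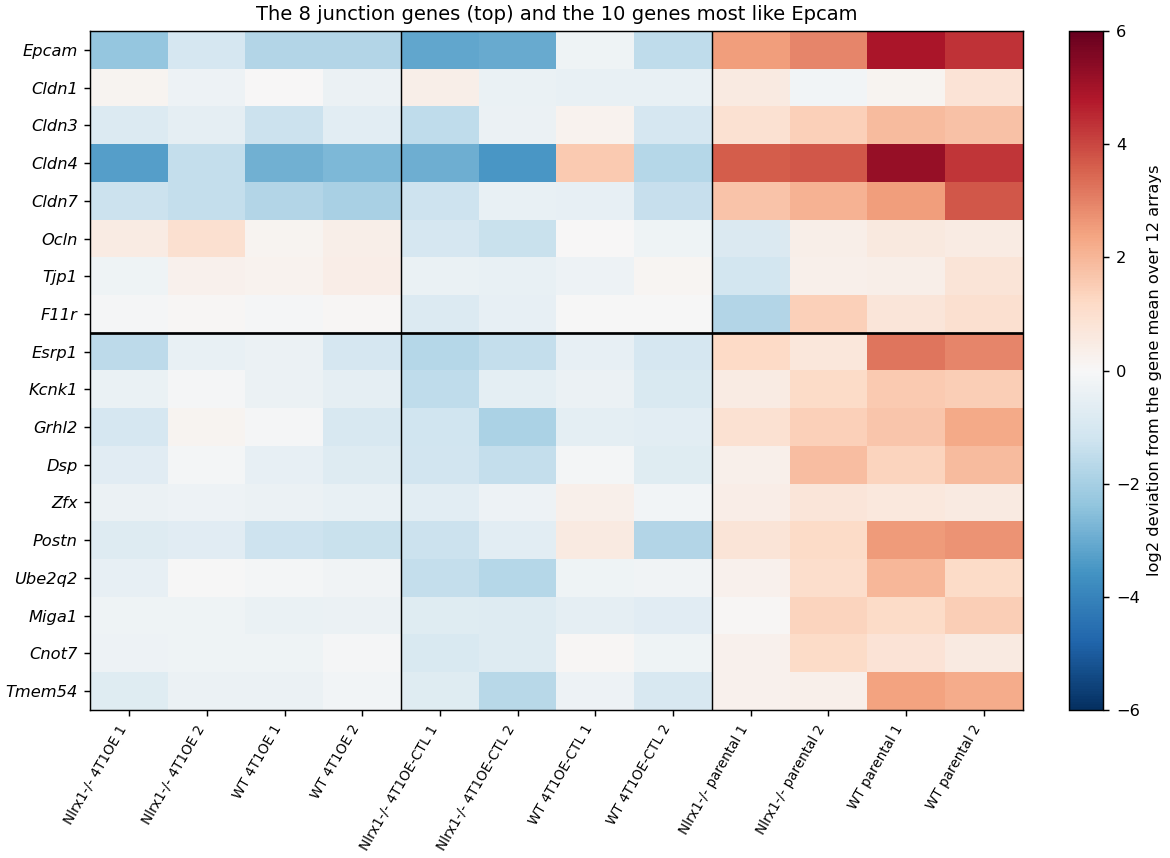
Deviation of each gene's log2 value from its own mean over 12 arrays, for the 8 genes above the line and the 10 genes most like Epcam below it. Columns are arrays, with vertical lines between cell lines. The parental columns are above the mean for Epcam, Cldn3, Cldn4, Cldn7 and all 10 like genes, whereas Ocln, Tjp1 and F11r are below it on the first parental array.

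Genes next to the 4 in the RefSeq gene order of the mouse were looked up after the values were seen. Apart from Kcnk12 and Slc2a4, under or near the background, they did not share the size of the differences of the 4. Mettl27 and Abhd11, which flank the pair of Cldn3 and Cldn4, had line means that differed by -0.15 and 0.04 between 4T1OE-CTL and parental tumours over 12 arrays. Calm2, which flanks Epcam, differed by -0.38. Kcnk12, on the other side of Epcam, lay at 3.05 to 3.59, under the background of every array, and could show no change. Slc2a4 and Elp5, which flank Cldn7, differed by 0.18 and -0.14, with Slc2a4 at 4.98 to 6.83, near the background.

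Other tight junction genes were compared between the lines as well. They were listed with earlier results of these data known, so their calls between lines are a description. Of 54 further genes measured, 19 claudins, 11 other membrane proteins and 24 scaffold and polarity genes, 4 rose in 4T1OE relative to 4T1OE-CTL tumours and 0 fell in limma, beside 3.69% and 1.04% of all features. These were Cldn12 (1.01, SE 0.219), a claudin that lacks the usual scaffold-binding tail, and the genes of the scaffold MAGI-3 (Magi3, 1.00), the polarity protein PAR-3 (Pard3, 1.12) and the junction-bound protein GEF-H1 (Arhgef2, 1.19). In 4T1OE-CTL relative to parental tumours 4 fell and 0 rose, beside 1.62% and 0.968% of all features. They were Cgnl1 (-1.88, SE 0.257), which encodes paracingulin, Pard3 (-1.57), Lsr (-1.30), the gene of the tricellular junction protein angulin-1, and Arhgef2 (-1.16). In 4T1OE relative to parental tumours Cgnl1 alone fell (-1.37, SE 0.257), beside 0.441% of all features lower. Both comparisons of the control line share its arrays, and the values of Pard3 and Arhgef2 in them are not independent.

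The median difference of the 54 genes was 0.00 for 4T1OE minus 4T1OE-CTL, -0.14 for 4T1OE minus parental and -0.03 for 4T1OE-CTL minus parental, beside -0.05, -0.03 and 0.02 over all features. Of the 19 other claudins 13 lay under the background on all 12 arrays and 1, Cldn12, on none. Of the 11 other membrane proteins 3 lay under it on all arrays. Of the 24 scaffold and polarity genes 19 lay above it on all arrays and 1 lay under it on all. Genes under it on all arrays could show no change. None of the 54 passed in a host comparison or in the interaction. At an unadjusted p under 0.05, 1 did between hosts over all lines, 2 in 4T1OE tumours, 5 in 4T1OE-CTL tumours and 2 in the interaction.

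The calls in the 54 genes depended on the arrays. With all 12 arrays 0 of the 54 passed in each of the 3 line comparisons, and without the arrays of low standard deviation 0 did as well. Pard3, for instance, was at 11.2 and 11.6 in Nlrx1-/- and 11.1 and 11.7 in WT hosts with 4T1OE tumours, 10.4 and 9.43 in Nlrx1-/- and 10.6 and 10.7 in WT hosts with 4T1OE-CTL tumours, and 9.81 and 12.1 in Nlrx1-/- and 11.7 and 11.8 in WT hosts with parental tumours. Its lowest values thus stood on the arrays where F11r, Ocln and Tjp1 were lowest.

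Of 10 genes measured in a list of partners of EpCAM and of membrane proteases with their inhibitors, 4 fell in 4T1OE-CTL relative to parental tumours and 0 rose, beside 1.62% and 0.968% of all features. These were St14 (-1.97, SE 0.433), the gene of the membrane protease matriptase, Spint1 (-1.74, SE 0.214) and Spint2 (-1.56, SE 0.309), which encode its Kunitz-type inhibitors, and Prss8 (at least 0.67 lower), the gene of prostasin, with limma adjusted p between 0.00166 and 0.0353. The other 6 did not pass there, among them the binding partners Cd9, Tspan8 and Cd44 and the EpCAM-cleaving Adam17 and Psen2. None of the 10 passed in 4T1OE relative to parental tumours. As the list was chosen with earlier results of these data known, its calls between lines are a description. Spint1 rose by 1.19 (SE 0.196, adjusted p = 0.0134) in 4T1OE relative to 4T1OE-CTL tumours. In 4T1OE-CTL tumours St14 was at 5.92 and 5.77 in Nlrx1-/- hosts, against 8.53 and 7.67 in WT hosts (difference -2.25, limma adjusted p = 0.186). The 3 lowest values of St14, Spint1 and Spint2 stood on both Nlrx1-/- 4T1OE-CTL arrays and the parental array left out, which have low standard deviations. With all 12 arrays 0 of the 4 calls relative to parental tumours were left, and 0 without the arrays with a standard deviation under 3. Spint1 alone was left without the arrays with high B cell genes, without Nlrx1-/- parental replicate 2 or without WT parental replicate 2, and 2 genes were left without Nlrx1-/- 4T1OE-CTL replicate 2 or WT 4T1OE-CTL replicate 1.

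Of 11 transcription and splicing regulators of epithelia, Esrp1, Esrp2 and Grhl2 fell in 4T1OE-CTL relative to parental tumours, beside 1.62% of all features. Their differences were -3.26, -1.53 and -2.79 (limma, adjusted p = 0.00187, 0.0329 and 0.0022). This list was chosen with earlier results of these data known, so its calls between lines are a description. Esrp1 and Grhl2 were also among the genes most like Epcam on the same arrays. Esrp1 and Grhl2 fell in 4T1OE relative to parental tumours, beside 0.441% of all features. Their differences were -2.96 and -2.18 (limma, adjusted p = 0.00819 and 0.0176). Esrp1 lay under the background on 5 of 12 arrays, all of the transduced lines, so the sizes of its differences are uncertain. Grhl2 was at 6.49 and 7.67 in Nlrx1-/- and 7.43 and 6.53 in WT hosts with 4T1OE tumours, 6.30 and 5.60 in Nlrx1-/- and 6.94 and 6.87 in WT hosts with 4T1OE-CTL tumours, and 8.40 and 8.92 in Nlrx1-/- and 9.17 and 9.78 in WT hosts with parental tumours. As for Epcam, no transduced-line array reached the parental ones. Both Esrp1 and Grhl2 were called in 4T1OE-CTL against parental tumours in every setting but that without the arrays with a standard deviation under 3, where 0 of the 11 genes were. In 4T1OE, Esrp1 alone passed without Nlrx1-/- 4T1OE replicate 1, either WT 4T1OE array, Nlrx1-/- parental replicate 2 or WT parental replicate 2. The same held without the arrays with high B cell genes. Of 5 genes of transcription factors of epithelial-mesenchymal transition measured, Zeb1, Snai1, Snai2, Twist1 and Twist2, 0 passed in any comparison. Zeb2, also listed, was not measured. Snai2 lay under the background on 11 of 12 arrays and could hardly show a change, while Zeb1 and Snai1 lay above it on all. At an unadjusted p under 0.05 Twist2 had a difference of -0.82 for 4T1OE minus parental tumours and Snai1 one of -0.75 for Nlrx1-/- minus WT hosts with 4T1OE-CTL tumours.

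**Figure D5:**
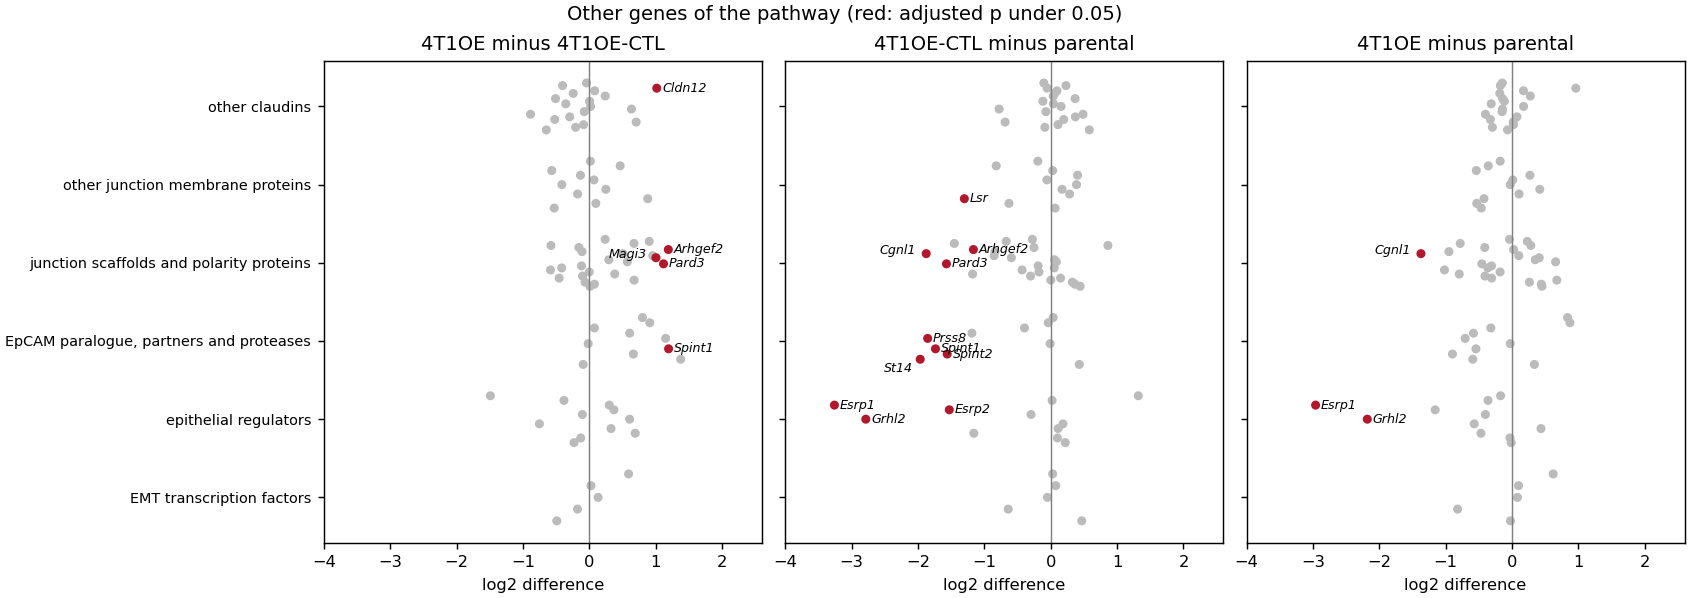
Log2 differences between cell lines for the other genes of the pathway, 1 point a gene, grouped by list, with genes at a limma adjusted p under 0.05 in red and named. Prss8 in 4T1OE-CTL minus parental tumours is drawn at its fitted value and is only bounded. Most points lie near 0 in the 3 junction lists, and Esrp1 and Grhl2 are the lowest points in both comparisons with parental tumours.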

How the data were processed

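Arrays of pooled tumour RNA, 12 in 6 groups, were used as the authors deposited them, as log2 values. Per the submitters' processing notes the tool was the Transcriptome Analysis Console, and neither the normalization method nor a genome build is given in the sources used here. The manufacturer's control array holds no values and was not used. After 6640 control features were left out, 22206 features were tested without a filter. Of these, 19572 had 1 gene symbol and 2634 none.

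The two-sided tests came from limma 3.58.1 (lmFit and eBayes) under R 4.3.3, and p-values were adjusted by Benjamini and Hochberg's method over the 22206 features. Host and line were additive terms for the line comparisons and for hosts over all lines. The host comparisons within a line and the interaction had 1 mean per group. A fit on simulated data was checked first. A gene under the negative control median on every array of 1 side got a bound: on the dim side, each array entered with its own value or the negative control median, whichever was greater.

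The members, lists and tests were chosen with earlier results of these data known. Named genes were the 8, list members that passed (at most 8 a direction), the 10 genes most like Epcam and the 3 most like each other gene. Marker genes shown beside a result, and a few list members that did not pass, were named after their values were seen. Promoter sequences came from RefSeq, of GRCm38.p6, and all 8 genes matched by symbol. All 66 pairs of arrays differed.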

Additional observations from a re-analysis of the deposited data

Results flagged for a closer look

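Cldn1 on Nlrx1-/- 4T1OE-CTL replicate 1 was 5.53, apart from the other 3 arrays of that line at 4.73 to 4.80, and under that array's background. Ocln on Nlrx1-/- parental replicate 1, the array its label recommends leaving out, was 5.79, apart from the other 3 parental arrays at 7.05 to 7.28. Such a gap arises by chance in about 1 of 20 groups of samples. Each of the 8 genes was searched in each of the 3 lines and 2 hosts, so more than 1 gap can arise by chance. For Ocln the host difference, Nlrx1-/- minus WT, was positive for both arrays in 4T1OE and negative for both in 4T1OE-CTL tumours. The fitted difference between them was 1.52, with an adjusted p of 0.999 in limma's interaction test. Both Nlrx1-/- 4T1OE-CTL arrays lay under the background, so that value is no measured size, and the difference was at least 1.41.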

How the results depend on the processing

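Epcam, Cldn3, Cldn4 and Cldn7 were lower than in parental tumours in both transduced lines in all 22 alternative settings. The count of members called was 4 to 6 for 4T1OE-CTL minus parental and 4 or 5 for 4T1OE minus parental tumours. For 4T1OE minus 4T1OE-CTL the 1 member called became 0 with all 12 arrays, quantile normalization, the replicate block, the array standard deviation as a covariate, and, in settings chosen after the data were seen, without the 2 fitted arrays with high B cell genes or without arrays with a standard deviation under 3; it was 0 to 1 with single arrays left out. In the 54 junction genes, the 4 called there became 0 with all 12 arrays, with the covariate and in both later settings, and 2 after quantile normalization. With single arrays left out this count was 0 to 9, with 0 without any one of the 4 4T1OE arrays or Nlrx1-/- 4T1OE-CTL replicate 2, 1 without WT 4T1OE-CTL replicate 1, 2 without Nlrx1-/- 4T1OE-CTL replicate 1 and 9 without WT 4T1OE-CTL replicate 2. The 4 called in 4T1OE-CTL minus parental became 0 with all 12 arrays and without arrays under 3, 2 with the replicate block and 2 with the covariate, and 1 to 4 with single arrays left out, 1 without Nlrx1-/- parental replicate 2 or WT parental replicate 2. The 1 called in 4T1OE minus parental became 0 with all 12 arrays, with the covariate and in both later settings, 2 at the console threshold (a fold of at least 2 with an unadjusted p under 0.05), and 0 to 1 with single arrays left out, 0 without Nlrx1-/- 4T1OE replicate 1, either WT 4T1OE array or WT parental replicate 1. At the console threshold 1 member was called between hosts over all lines (Epcam), 3 in 4T1OE-CTL tumours and 3 in the interaction (Epcam, Cldn4 and Ocln in both), with 2 junction genes in each of these 2 comparisons. Over all features, quantile normalization left 592 calls in place of 1051 for 4T1OE minus 4T1OE-CTL, 64.9% of them higher in place of 78.0%, all 12 arrays left 25, the covariate left 4 and the arrays with a standard deviation of 3 or more left 15, of which 26.7% were higher. Dropping 1 array gave 70 to 2663 calls there. The lowest came when Nlrx1-/- 4T1OE replicate 1 was dropped and the highest when WT 4T1OE-CTL replicate 2 was, so the share of features called is itself unstable. The count was 126 to 880 for 4T1OE-CTL minus parental and 83 to 342 for 4T1OE minus parental tumours. For 4T1OE-CTL minus parental tumours all 12 arrays left 157 calls in place of 575, 70.7% of them higher in place of 37.4%. For 4T1OE minus parental tumours the share higher was 49.4% after quantile normalization in place of 66.8%. The causes were not tested. Replicate numbers were not treated as pairs in the fits given above. Of 15 pairs of groups, 4 had a correlation of deviations over 0.1 (range -0.31 to 0.61, the highest between Nlrx1-/- and WT parental tumours). Whether arrays with the same replicate number share a batch cannot be told from these values. With the replicate number as a block 882 features were called for 4T1OE minus 4T1OE-CTL, 480 for 4T1OE-CTL minus parental and 295 for 4T1OE minus parental tumours. Without arrays under 3 the host comparison in 4T1OE-CTL tumours and the interaction could not be fitted. With 2 arrays a group, host differences as large as the intervals given cannot be told from 0, and genes near the negative controls have no measured size.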
